A study of Homo sapiens with 12 samples.

Results

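The genes described here are 10 regulators of the G1 phase of the cell cycle in MDA-MB-231 breast cancer cells: the D-type cyclins CCND1, CCND2 and CCND3, the E-type cyclins CCNE1 and CCNE2, the kinases CDK4, CDK6 and CDK2, and the kinase inhibitors CDKN1B and CDKN1C. They were taken by symbol, through their Ensembl identifiers, from the table of read counts of the whole series. All 10 were found among its 63568 identifiers, and 9 of them, all but CCND2, were among the 25249 identifiers with enough counts to be tested. The data are RNA-seq counts of 12 samples, 2 for each of 6 conditions. C1 was untreated and taken on day 2, C2 was untreated and taken on day 4, and the other samples received Paclitaxel at 0.0005, 0.005, 0.05 or 0.5 μM on day 2, by the labels, and were taken on day 4. The study describes a later day of dosing for its imaging cultures, so the length of exposure stated here rests on the labels alone. Every sample, controls included, consisted of GFP-expressing MDA-MB-231 cells, listed as wild type, embedded in Matrigel, by the labels as droplets on glass-bottom plates, with the Matrigel dissolved by enzymes before RNA was extracted. By the methods of the study, more cells and more Matrigel were used for sequencing than for imaging. MDA-MB-231 is a mesenchymal-like line of triple negative breast cancer, and Paclitaxel binds and stabilises microtubules. All samples are of this single line.

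During G1 a cell commits to copying its DNA or stays out of the cycle. D-type cyclins rise in answer to growth factors and bind CDK4 and CDK6, and these kinases begin to phosphorylate the retinoblastoma protein, which otherwise holds back the E2F transcription factors. Free E2F factors then switch on the E-type cyclins and the genes of DNA replication, cyclin E with CDK2 completes the phosphorylation, and the inhibitors of the Cip/Kip family, encoded by CDKN1B and CDKN1C among others, bind these complexes and restrain CDK2. CCND1 is often over-produced in breast cancer, and drugs that block CDK4 and CDK6 are used against some types of the disease. Much of this control acts on proteins and their phosphorylation, which were not measured here.

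The deposited counts summed to between 38380629 and 79169121 per sample, with a median of 65977095.5. The methods of the study describe the 2 samples of a condition as biological replicates. Both C1 libraries differed from each other more than any other pair, with a chi-square of 414 per degree of freedom over genes against 12.2 to 74.4 for the other conditions. Members are given with and without them where their calls changed. Named genes are so given for treated against untreated samples, and by dose only in part. The summed level of 5 genes that mark the line (VIM, CD44, EGFR, AXL and CAV1) lay between 2390 and 3650 CPM (counts scaled to library size after TMM) in untreated and between 1940 and 2540 CPM in treated samples. Of the genes the line should lack, ESR1, PGR and CDH1 stayed at or below 0.46, 0.0867 and 0.201 CPM, whereas EPCAM ran from 4.37 to 6.77 CPM and ERBB2 from 26.6 to 52.4 CPM. The sum of 8 fibroblast markers was 9.22 to 17 CPM in untreated and 13.1 to 21.7 CPM in treated samples. Most of it came from COL1A1 and PDGFRB, while DCN, LUM, COL1A2 and FAP did not exceed 0.153, 0.505, 0.13 and 0.173 CPM. PDGFRA and COL3A1 reached 2.16 and 1.52 CPM. The mean of PDGFRA was 0.122 CPM in C2 and 2.08 at 0.05 μM, and that of COL3A1 was 0.236 and 1.49 CPM. For 5 leukocyte markers the sums were 1.16 to 1.77 and 2.06 to 3.41 CPM, and for 3 endothelial markers 0.418 to 1.51 and 1.96 to 2.94 CPM. No marker was at 0 in all samples. In treated samples 3 of 6 tested fibroblast, 3 of 4 leukocyte and 1 of 3 endothelial markers were higher, beside 13.1% of all genes, and 3 of the 5 line markers were lower, beside 11.3%. Without both C1 libraries these counts were 2, 2, 1 and 2, beside 13.5% of all genes called in either direction. The part of these markers in the results was not tested. In bulk samples fewer cells with a transcript and less of it per cell cannot be told apart.

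Levels of different genes were compared per length, as RPKM over the merged exons of each gene. CCND1 was the highest in all 12 samples, at 64.0 RPKM on average with a range of 48.1 to 121. CDK4 came next at 27.7 RPKM (21.4 to 36.9) and CDK2 then at 11 RPKM (8.61 to 16.8), and each lay above its lower neighbour in 12 of 12 samples. CCND3 at 7.51, CDK6 at 6.48 and CDKN1B at 6.11 RPKM lay close together: CCND3 exceeded CDK6 in 11 samples, and CDK6 exceeded CDKN1B in only 6 of 12. CDKN1C followed at 4.49 RPKM and exceeded CCNE2, at 3.27 RPKM, in 9 samples. CCNE1 was the lowest of the readily detected genes at 2.27 RPKM. CCND2 was nearly silent at 0.00178 RPKM, with between 0 and 4 reads in any library. The order depends on the length used: with the canonical transcript of each gene, CDKN1B stood at 23.5 RPKM, behind only CCND1 at 71.8 and CDK4 at 45.9, because its merged exons cover 9255 bases and its canonical transcript 2411.

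**Figure D1:**
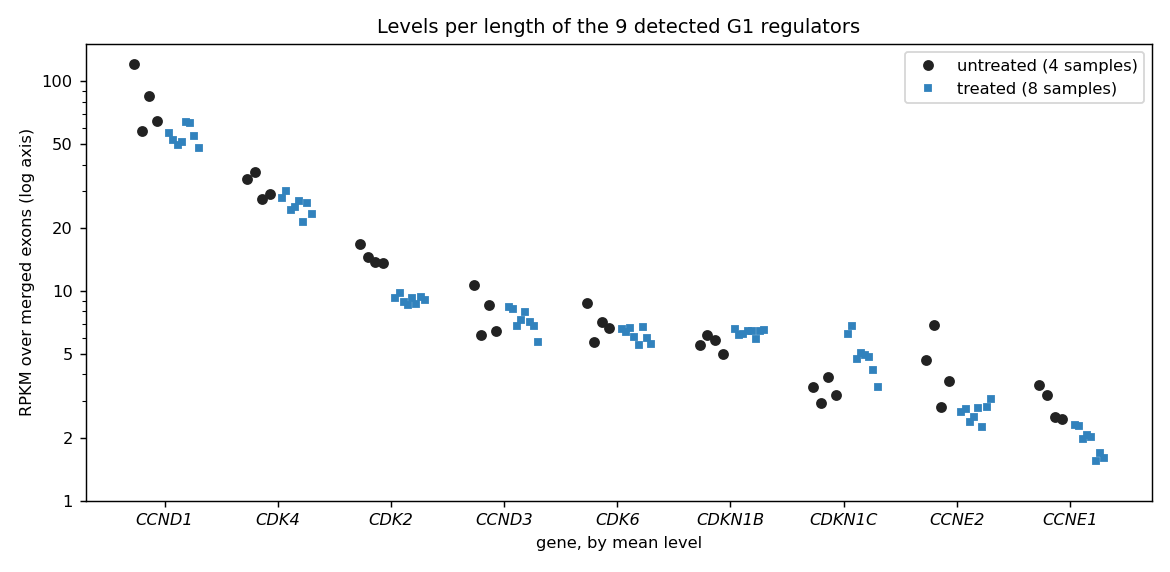
RPKM over merged exons on a log axis for the 9 detected genes, ordered by mean level, with 1 point per sample (black circles, 4 untreated; blue squares, 8 treated). CCND1 was above CDK4, and CDK4 above CDK2, in 12 of 12 samples, and the treated points of CDK2 and CCNE1 lay below all untreated points of the same gene.

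Reads were summed over the exons of each gene, coding and untranslated, on GRCh37. Whether the counting used strand is not given in the sources used here, so overlap with genes on the other strand could add reads to the counts or withhold them. The overlap was largest for CDK4, which shared 44.2% of its exonic bases with TSPAN31, and for CCNE2, which shared 37% with INTS8. CCND1 shared 10.4% with LTO1 and CDK2 shared 14.5% with a long noncoding RNA that had 0 counts, whereas CCND3, CDK6, CCNE1, CDKN1B and CDKN1C shared 2% or less.

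Promoter sequences of 5 genes, CCND3, CCNE1, CDK4, CDK6 and CDKN1B, were taken from RefSeq on GRCh38.p14, in 8 windows of 250 bases before a start site. The windows of CCNE1, CDK4 and CDKN1B are shown because CCNE1 and CDK4 were the closest pair of all members in their levels over the samples. CDKN1B is shown beside them, with weak negative correlations (Pearson's r = -0.437 with CCNE1 and -0.287 with CDK4, n = 12 samples). Whether the letters in these windows bear on the levels was not tested. The windows lie at chr19:29811741-29811990 on the plus strand, chr12:57752311-57752560 on the minus strand and chr12:12717118-12717367 on the plus strand, and capitals mark the GC box (GGGCGG or its reverse complement) and the CCAAT box (CCAAT or its reverse complement), which do not overlap here.
CCNE1: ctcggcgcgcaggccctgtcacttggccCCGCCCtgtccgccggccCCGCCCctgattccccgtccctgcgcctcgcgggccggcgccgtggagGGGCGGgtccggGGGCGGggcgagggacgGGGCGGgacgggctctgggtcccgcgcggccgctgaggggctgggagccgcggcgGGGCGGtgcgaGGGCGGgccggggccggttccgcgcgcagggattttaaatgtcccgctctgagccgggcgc
CDK4: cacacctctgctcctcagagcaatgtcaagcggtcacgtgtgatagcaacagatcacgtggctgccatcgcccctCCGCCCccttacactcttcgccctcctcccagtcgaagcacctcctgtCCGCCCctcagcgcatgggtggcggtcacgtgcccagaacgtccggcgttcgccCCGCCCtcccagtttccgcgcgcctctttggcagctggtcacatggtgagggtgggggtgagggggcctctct
CDKN1B: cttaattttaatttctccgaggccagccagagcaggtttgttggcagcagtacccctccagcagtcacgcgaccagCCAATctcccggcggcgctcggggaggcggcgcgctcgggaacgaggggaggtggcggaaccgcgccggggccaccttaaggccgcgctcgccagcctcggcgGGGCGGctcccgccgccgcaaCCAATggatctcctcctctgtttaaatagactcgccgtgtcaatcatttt
CCNE1 held 7 GC boxes, CDK4 held 3, and CDKN1B held 1 together with 2 CCAAT boxes. A GC box was present in 42.6% and a CCAAT box in 32.0% of all 35116 promoter windows of this length. An E2F site (TTTGGCGC, TTTCCCGC, TTTCGCGC or TTTGCCGC on either strand) was present in 2.79% of all windows, the CHR element (TTTGAA or TTCGAA) in 14.3% and an AP-1 site (TGACTCA or TGAGTCA) in 4.2%, and none of these letters occurred in the 8 windows.

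Each dose was compared with C2, the untreated samples of the same day, in edgeR's quasi-likelihood model of all 12 samples, and a gene was called at a Benjamini-Hochberg adjusted p under 0.05 over all tested genes. One member was called at each dose: CDKN1C was higher at 0.0005 μM, and CDK2 was lower at 0.005, 0.05 and 0.5 μM. Over all tested genes the share called at 0.0005 μM was 2.34% (1.87% higher and 0.479% lower), at 0.005 μM 3.28% (2.50% and 0.776%), at 0.05 μM 8.32% (5.09% and 3.23%) and at 0.5 μM 6.32% (4.36% and 1.96%), against which 1 member of 9 is no result about the group. The median log2 fold change of the 9 members was -0.0858, -0.195, -0.228 and -0.251 from the lowest to the highest dose, beside medians between -0.011 and 0.0362 over all tested genes and of -0.0436, -0.114, -0.106 and -0.104 over the 12255 genes with a mean of at least 5 CPM, a level that all 9 members reached. The 4 comparisons share the 2 C2 samples. Without both C1 libraries, an alternative chosen after the data were seen, 3 of 9 members were called at each dose, beside 10.2%, 12.6%, 19.0% and 19.9% of all genes. CDK2 was among them at every dose, joined by CCND1 and CDKN1C at 0.0005 and at 0.005 μM, by CCNE1 and CDKN1C at 0.05 μM, and by CCND1 and CCNE1 at 0.5 μM.

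**Figure D2:**
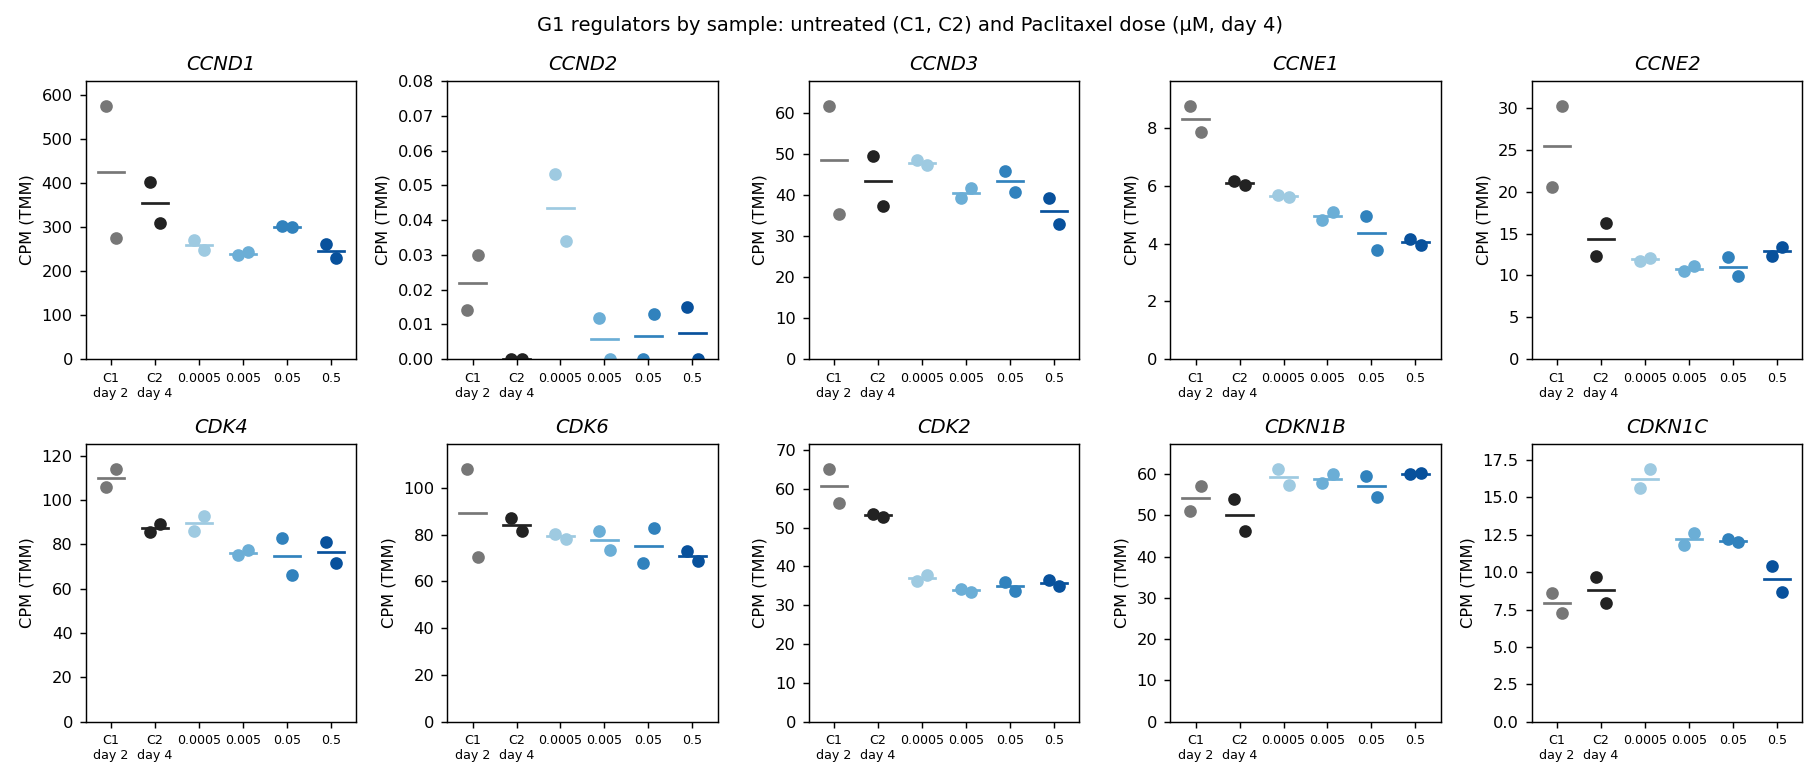
CPM after TMM scaling of each of the 10 genes, with 1 point per sample and a line at the mean of the 2 samples of a condition (C1, day 2; C2, day 4; Paclitaxel dose in μM, day 4). CDK2 lay between 33.5 and 37.9 CPM in all treated samples against 52.8 CPM or more in untreated ones, CDKN1C was highest at 0.0005 μM, and CCND2 was at or near 0 throughout.

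CDK2 (ENSG00000123374, chr12:56360565-56366573 on GRCh37), the partner of cyclins E and A, gave the clearest difference between treated and untreated samples. Its level was 65.1 and 56.4 CPM in C1, 53.6 and 52.8 in C2, 36.2 and 37.9 at 0.0005 μM, 34.3 and 33.5 at 0.005 μM, 36.1 and 33.7 at 0.05 μM, and 36.5 and 35.0 at 0.5 μM. All 8 treated samples were lower than all 4 untreated samples, and the treated samples of all doses lay within 33.5 to 37.9 CPM. Against C2 the log2 fold change was -0.52 ± 0.13 (SE; adjusted p = 0.0557) at 0.0005 μM, -0.65 ± 0.13 (adjusted p = 0.0189) at 0.005 μM, -0.61 ± 0.13 (adjusted p = 0.0146) at 0.05 μM and -0.57 ± 0.13 (adjusted p = 0.0244) at 0.5 μM. Over the 8 treated samples its slope was -0.01 ± 0.03 per 10-fold of dose (adjusted p = 0.904), so the lower level was about as large at the lowest dose as at the highest. With either C2 sample left out the calls at the 3 upper doses were lost, at adjusted p between 0.0681 and 0.177, while the log2 fold change stayed between -0.66 and -0.56. The calls at these doses were also lost without either sample of the dose itself, with log2 fold changes from -0.67 to -0.54. At 0.5 μM the call was lost without either sample of 0.005 μM as well, at -0.57. In those fits the lone sample is assumed to vary as the other conditions do. Left without C1, the fit called CDK2 at every dose, with adjusted p of 0.00347, 0.000699, 0.000727 and 0.00104.

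CDK4 (ENSG00000135446, chr12:58141510-58149796), which pairs with D-type cyclins, was at 106 and 114 CPM in C1 and 85.4 and 89.3 in C2. In treated samples it measured 86.0 and 93.0, 75.1 and 77.5, 83.1 and 66.1, and 81.1 and 71.6 CPM from the lowest to the highest dose. C1 stood above every other sample, whereas C2 overlapped the samples of 0.0005 μM. No dose differed from C2 past the threshold, with log2 fold changes from -0.23 to 0.04 (SE 0.14) and adjusted p between 0.383 and 0.926. CDK6 (ENSG00000105810, chr7:92234235-92465887), the other partner of the D-type cyclins, ran from 70.2 to 108 CPM in untreated and from 67.7 to 82.9 CPM in treated samples. Both extremes of its untreated range were C1 samples, and its log2 fold change against C2 ran from -0.09 at 0.0005 μM to -0.25 ± 0.19 at 0.5 μM (adjusted p = 0.448 at the latter).

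CCND1 (ENSG00000110092, chr11:69455924-69469242), the main D-type cyclin of these cells, measured 575 and 275 CPM in C1 and 403 and 309 in C2. The treated samples gave 270 and 248, 236 and 244, 303 and 300, and 262 and 229 CPM in order of dose. Treated levels lay within a narrow band, and only the lower C1 sample, at 275 CPM, fell inside it. The log2 fold changes against C2 were -0.46, -0.57, -0.24 and -0.54, each ± 0.26 (SE), with adjusted p of 0.404, 0.272, 0.652 and 0.251, so none passed the threshold. The difference was called, once both C1 libraries were left out, at 0.0005, 0.005 and 0.5 μM, with adjusted p of 0.0414, 0.0142 and 0.0105. CCND3 (ENSG00000112576, chr6:41902672-42018095), a second D-type cyclin, ranged from 35.4 to 61.6 CPM in untreated and from 32.9 to 48.4 CPM in treated samples. Its log2 fold change against C2 ran from -0.27 to 0.14 (SE 0.23) with adjusted p of at least 0.511, and the direction was not the same at all doses. CCND2 (ENSG00000118971, chr12:4378937-4414519), the third D-type cyclin, had 1 and 1 reads in C1, 0 and 0 in C2, 4 and 2 at 0.0005 μM, 1 and 0 at 0.005 μM, 0 and 1 at 0.05 μM, and 1 and 0 at 0.5 μM. A count of 0 allows up to 3 reads, which was 0.0354 to 0.0895 CPM in these libraries for counting error only, and no difference was detectable at this depth.

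CCNE1 (ENSG00000105173, chr19:30302898-30315219), an E-type cyclin that activates CDK2, was lower at each higher dose in its mean level. It measured 8.77 and 7.88 CPM in C1, 6.17 and 6.05 in C2, 5.68 and 5.61 at 0.0005 μM, 4.81 and 5.09 at 0.005 μM, 4.96 and 3.80 at 0.05 μM, and 4.16 and 3.94 at 0.5 μM. As with CDK2, every treated sample was below every untreated sample, but here the samples of 0.0005 μM lay above those of all higher doses and those of 0.005 μM above those of 0.5 μM. The log2 fold change against C2 was -0.12, -0.30, -0.48 and -0.59, each with an SE close to the 0.17 of the highest dose, and the adjusted p of 0.762, 0.343, 0.0968 and 0.0563 did not pass the threshold. The slope of -0.16 ± 0.05 per 10-fold of dose missed it as well (adjusted p = 0.0853), although DESeq2 called both the slope (adjusted p = 0.0293) and the highest dose (adjusted p = 0.0197). Without both C1 libraries CCNE1 was called at 0.05 μM (adjusted p = 0.0407) and at 0.5 μM (adjusted p = 0.0125).

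CCNE2 (ENSG00000175305, chr8:95891998-95908906), the second E-type cyclin, differed most between the 2 untreated days. It was at 20.6 and 30.2 CPM in C1, 12.3 and 16.3 in C2, and between 9.88 and 13.4 CPM in all treated samples. C1 was above every other sample, whereas C2 overlapped the treated samples. The log2 fold change of C2 against C1 was -0.82 ± 0.20 (adjusted p = 0.173), and those of the doses against C2 were -0.26, -0.41, -0.37 and -0.15 (SE 0.20 at the highest dose) with adjusted p of 0.533, 0.298, 0.301 and 0.684. Its ratio to CCNE1, in RPKM, overlapped between untreated (1.11 to 2.14) and treated samples (1.15 to 1.91).

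CDKN1C (ENSG00000129757, chr11:2904443-2907005), an imprinted inhibitor of the Cip/Kip family, was highest at the lowest dose. Its level was 8.62 and 7.25 CPM in C1, 9.71 and 7.91 in C2, 15.6 and 16.9 at 0.0005 μM, 11.8 and 12.6 at 0.005 μM, 12.2 and 12 at 0.05 μM, and 10.4 and 8.65 at 0.5 μM. The samples of the 3 lower doses were above all untreated samples, while those of 0.5 μM overlapped C2. Against C2 the log2 fold change was 0.88 ± 0.16 at 0.0005 μM (adjusted p = 0.0137), a 1.84-fold higher level, then 0.47 ± 0.16 (adjusted p = 0.144), 0.46 ± 0.16 (adjusted p = 0.108) and 0.12 ± 0.16 (adjusted p = 0.706). Over the treated samples it fell by 0.23 ± 0.04 on the log2 scale per 10-fold of dose (adjusted p = 0.0108), the only member with a called slope, beside 3.06% of all genes (1.02% rising and 2.04% falling with dose). The call at 0.0005 μM was lost without either C2 sample (adjusted p = 0.0588 and 0.144) and without either sample of that dose (0.0738 and 0.128), with log2 fold changes between 0.74 and 1.04. The slope lost its call without either sample of 0.0005 μM (adjusted p = 0.0974 and 0.0659) and without replicate 2 of 0.5 μM (0.075), with slopes between -0.23 and -0.20. CDKN1C was called without both C1 libraries at 0.0005, 0.005 and 0.05 μM, with adjusted p of 0.000549, 0.0263 and 0.0199.

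CDKN1B (ENSG00000111276, chr12:12838432-12875303), the inhibitor whose protein is removed when cells enter S phase, changed little. It measured 51.1 and 57.2 CPM in C1, 53.9 and 46.1 in C2, and between 54.5 and 61.2 CPM in treated samples. The treated range overlapped the upper C1 sample. Log2 fold changes against C2 were 0.25, 0.23, 0.19 and 0.26 (SE 0.13 at the highest dose) with adjusted p of 0.372, 0.371, 0.446 and 0.265, positive at 4 of 4 doses but not past the threshold.

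**Figure D3:**
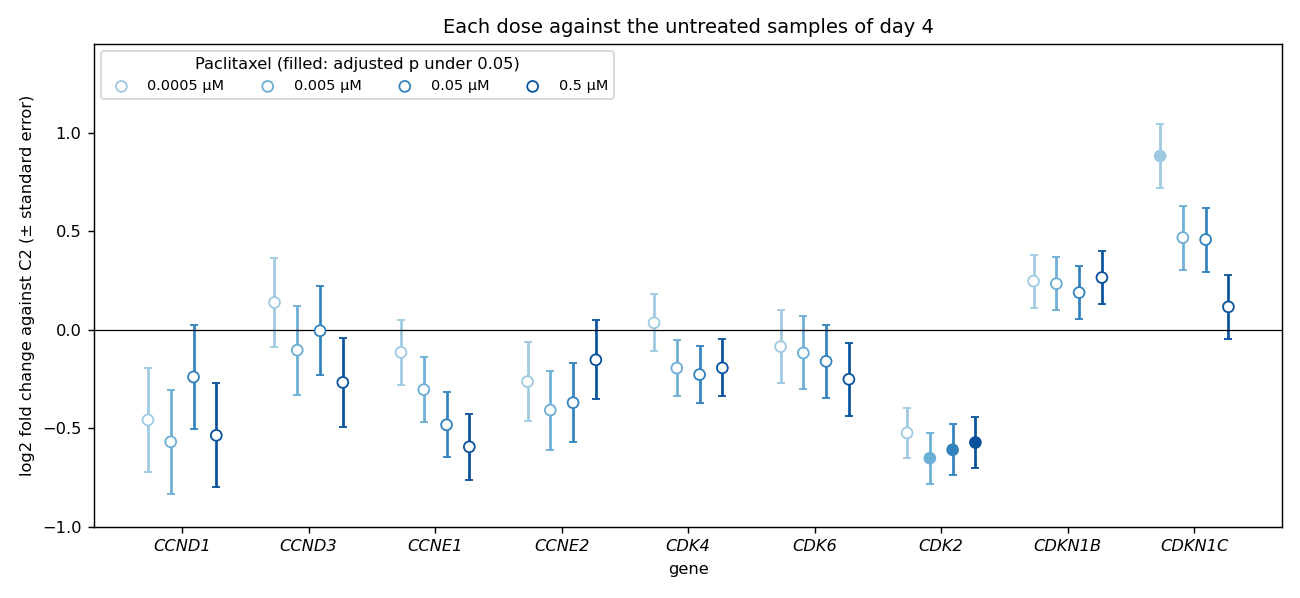
Log2 fold change of each dose against C2 in edgeR's quasi-likelihood model of 12 samples for the 9 tested genes, with bars of 1 standard error and filled points at an adjusted p under 0.05. CDK2 lay between -0.65 and -0.52 at the 4 doses, CCNE1 ran from -0.12 to -0.59, and CDKN1C ran from 0.88 down to 0.12.

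Between the 2 untreated days, C2 against C1, none of the 9 members was called, beside 0.325% of all genes. At an unadjusted p under 0.05 there were 3 members and 2524 genes, and DESeq2 called 1 member, CCNE2 (adjusted p = 0.0137). The members' median log2 fold change was -0.192, against -0.023 over all tested genes and -0.091 over those with a mean of at least 5 CPM. The size of the change turned on the C1 libraries. Without replicate 1 of C1 the log2 fold change of CCNE2 was -1.08, against -0.82 with both. Without replicate 2 of C1 that of CCND1 was -0.65, against -0.26 with both. Each of these fits leaves C1 with a lone sample, assumed to vary as the other conditions do, so only the size is given.

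The 8 treated samples together were compared with the 4 untreated samples, C1 and C2, in a fit of 2 groups. All treated samples were of day 4, whereas untreated samples were of days 2 and 4, so day is in part confounded with treatment here. Of the 9 members 5 were lower and 1 was higher in treated samples, beside 24.4% of all genes called (13.1% higher and 11.3% lower). The lower ones were CDK2 (log2 fold change -0.69 ± 0.08, adjusted p = 2.9e-05), CCNE2 (-0.76 ± 0.16, adjusted p = 0.0032), CCNE1 (-0.60 ± 0.14, adjusted p = 0.00486), CCND1 (-0.58 ± 0.15, adjusted p = 0.0122) and CDK4 (-0.32 ± 0.11, adjusted p = 0.037). CDKN1C was higher, by 0.58 ± 0.15 (adjusted p = 0.0116), and CCND3 (-0.13 ± 0.14, adjusted p = 0.505), CDK6 (-0.19 ± 0.11, adjusted p = 0.197) and CDKN1B (0.18 ± 0.08, adjusted p = 0.131) did not pass. The members' median was -0.318, beside -0.00194 over all tested genes and -0.142 over those with a mean of at least 5 CPM. CDK2 stood at 0.621 of its untreated level, with untreated samples from 52.8 to 65.1 CPM (median 55.0) and treated samples from 33.5 to 37.9 CPM (median 35.6). CCNE1, at 0.659 of its untreated level, had untreated samples from 6.05 to 8.77 CPM (median 7.02) and treated samples from 3.80 to 5.68 CPM (median 4.89). These were the 2 of 9 members whose treated and untreated samples did not overlap, beside 13.2% of all genes (5.77% with the treated samples lower).

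When both C1 libraries were left out, 8 treated samples were compared with the 2 C2 samples, and 2 members were still called beside 13.5% of all genes. CDK2 was lower by a log2 fold change of -0.58 ± 0.08 (adjusted p = 0.000444) and CCND1 by -0.43 ± 0.13 (adjusted p = 0.0354). The calls of CCNE1 (-0.35, adjusted p = 0.143), CCNE2 (-0.29, adjusted p = 0.138), CDK4 (-0.13, adjusted p = 0.472) and CDKN1C (0.52, adjusted p = 0.0862) were lost, with the same sign. CDKN1B came to 0.24 (adjusted p = 0.0781). Among single libraries, leaving out replicate 1 of C1 ended the call of CCND1 (-0.33, adjusted p = 0.0834) and that of CDK4 (-0.28, adjusted p = 0.103). CDK4 also lost its call without replicate 2 of C1 (adjusted p = 0.122), either sample of 0.005 μM (0.0643 and 0.0628) or replicate 2 of 0.5 μM (0.0644), and CDKN1B gained one without replicate 2 of C1 (0.25, adjusted p = 0.0252). CDK2 was called in this comparison under all 18 alternatives, with log2 fold changes from -0.72 to -0.58.

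**Figure D4:**
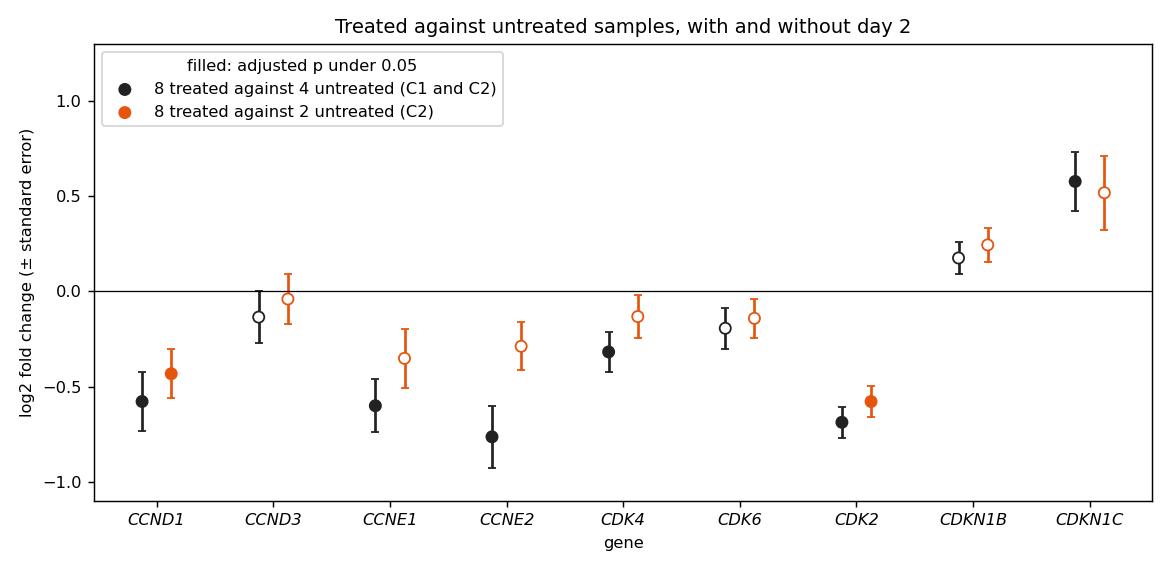
Log2 fold change of the 8 treated samples against all 4 untreated samples (black) and against the 2 samples of C2 alone (orange) for the 9 tested genes, with bars of 1 standard error and filled points at an adjusted p under 0.05. With C1 left out, CDK2 (-0.58) and CCND1 (-0.43) were still called, while CCNE2 moved from -0.76 to -0.29 and CDK4 from -0.32 to -0.13.

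Ratios between members are given as descriptions, in RPKM over merged exons, and their size depends on the gene length used. CDK2 over CDKN1B was 2.35 to 3.04 (median 2.55) in untreated and 1.33 to 1.57 (median 1.44) in treated samples, with no overlap. With canonical transcript lengths the same ratio was 1.06 to 1.37 and 0.602 to 0.711, so that only its lower value in treated samples, not which gene was higher, was the same under both lengths. CCND1 over CDKN1B was 9.35 to 21.9 (median 13.8) and 7.38 to 10.7 (median 8.47), which overlap, or 2.74 to 6.40 and 2.16 to 3.13 with canonical lengths. Among the 3 kinases CDK2 held 25.4% to 28.4% of the summed RPKM in untreated and 21.1% to 23.8% in treated samples, and among the D-type cyclins CCND1 held 90.4% to 91.9% and 86.4% to 89.9% (78.8% to 81.7% and 71.5% to 77.9% with canonical lengths). CDK4 over CDK6 overlapped, at 3.88 to 6.43 and 3.16 to 4.86, and at 6.14 to 10.2 and 4.99 to 7.68 with canonical lengths.

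Over the 12 samples, log2 CPM of CCNE1 correlated with that of CDK4 (Pearson's r = 0.922) and CDK2 (0.869), and CCNE2 with CDK4 (0.851). CCND1 was closest to CDK6 (0.803). CDK2 ran against CDKN1B (-0.683) and CDKN1C (-0.666), and CCNE2 against CDKN1C (-0.712). Among 11082 genes with a symbol and at least 5 CPM, the patterns most like that of CDK2 were ZNF367 (0.994), SKP2 (0.988) and CLSPN (0.986), those most like CCNE2 were MND1 (0.988), CCDC34 (0.985) and CENPU (0.982), and those most like CDKN1C were PRSS3 (0.970), GDF15 (0.966) and HLA-E (0.966). These points share libraries and conditions, so they describe the samples only.

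The other genes of the pathway were followed in 7 lists. Among the other kinase inhibitors, CDKN2A and CDKN2B, both inhibitors of CDK4 and CDK6, had 0 counts in all 12 samples, which allows up to 0.0354 to 0.0895 CPM. Of the 4 tested, CDKN2C, a relative of CDKN2A, was lower in treated samples (-0.43 ± 0.11, adjusted p = 0.00868), with 52.4 to 76.1 CPM untreated and 40.2 to 53.5 treated, and the difference was -0.18 ± 0.10 without both C1 libraries (adjusted p = 0.245), where none of the 4 was called in this comparison. CDKN1A, the Cip/Kip member best known as a p53 target, did not differ between treated and untreated samples past the threshold (0.08 ± 0.18, adjusted p = 0.786), with 49.7 to 107 CPM treated and 55.1 to 82.0 untreated. Its mean in order of dose was 105 ± 2.82, 71.8 ± 0.257, 70.1 ± 3.22 and 52.3 ± 3.65 CPM (SD, n = 2 each), beside 73.2 ± 4.75 in C2. The slope of CDKN1A was -0.31 ± 0.04 per 10-fold of dose (adjusted p = 0.00105), the same sign as that of CDKN1C, whereas none of the 4 doses was called against C2 in the model of all samples (adjusted p from 0.116 to 0.943). With both C1 libraries left out, CDKN1A was higher at 0.0005 μM (0.53 ± 0.10, adjusted p = 0.00451) and lower at 0.5 μM (-0.49 ± 0.10, adjusted p = 0.00458). CDKN3, a phosphatase that acts on CDK2, had a slope of 0.24 ± 0.05 (adjusted p = 0.031) and differed between treated and untreated samples by -0.27 ± 0.22 (adjusted p = 0.393). With C1 left out that value was 0.20 ± 0.23 (adjusted p = 0.609), and CDKN3 was higher at 0.5 μM against C2 (0.63 ± 0.16, adjusted p = 0.0138). CDKN2D gave 0.04 ± 0.10 in that comparison (adjusted p = 0.813).

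Among the 13 pocket proteins and E2F factors, through which G1 kinases act on transcription, 8 were lower and none was higher in treated samples, beside 11.3% of all genes lower, with a median log2 fold change of -0.424. RBL1, a pocket protein related to the retinoblastoma protein, was lower by -1.07 ± 0.12 (adjusted p = 1.6e-05), at 32.9 to 51.5 CPM untreated and 16.7 to 22.3 treated. The activator E2F1 gave -1.09 ± 0.14 (adjusted p = 4.46e-05), the late-acting repressor E2F8 -1.18 ± 0.15 (adjusted p = 6.36e-05) and TFDP1, the partner of E2F factors in binding DNA, -0.69 ± 0.11 (adjusted p = 0.000361). The number was 8 of 13 without both C1 libraries as well, beside 13.5% of all genes called in either direction. Against C2, 2, 3, 4 and 2 of the 13 were lower from the lowest to the highest dose, and none was higher, beside 0.479%, 0.776%, 3.23% and 1.96% of all genes lower. With C1 left out these counts were 7, 7, 8 and 7, again with none higher, beside 10.2%, 12.6%, 19.0% and 19.9% called in either direction.

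The 23 tested E2F targets and S phase genes were all lower in treated samples, beside 11.3% of all genes, with a median of -0.854. Once both C1 libraries were left out, 19 of 23 were lower beside 13.5% of all genes called. CLSPN, a checkpoint protein of the replication fork, was at 55.5 to 83.9 CPM untreated and 26.9 to 38.7 treated (-1.08 ± 0.12, adjusted p = 1.26e-05). CHAF1A, which places histones on new DNA, gave -1.21 ± 0.13 (adjusted p = 1.69e-05), GINS2 -1.31 ± 0.15 (adjusted p = 2.01e-05) and CDC45 -1.12 ± 0.13 (adjusted p = 2.22e-05), and the last 2 belong to the replicative helicase. Against C2 the numbers lower were 2, 13, 14 and 8 of 23 by dose, beside 0.479%, 0.776%, 3.23% and 1.96% of all genes lower, with medians of -0.484, -0.742, -0.681 and -0.578. C2 against C1 had a median of -0.51 with none called. The same counts with C1 left out were 16, 22, 18 and 18 of 23, beside 10.2%, 12.6%, 19.0% and 19.9% of all genes called in either direction, with medians of -0.477, -0.724, -0.664 and -0.579, so the order of the doses by this count depended on C1. Of the 18 G2 and M phase genes 8 were lower in treated samples, among them TOP2A (-0.94 ± 0.15, adjusted p = 0.000371), CDK1 (-1.01 ± 0.17, adjusted p = 0.000475), AURKB (-0.74 ± 0.13, adjusted p = 0.000788) and KIF11 (-0.61 ± 0.11, adjusted p = 0.0011), beside 11.3% of all genes. With C1 left out 5 of the 18 were lower beside 13.5% of all genes called in either direction, with CDK1 at -0.61 (adjusted p = 0.0106), TOP2A at -0.58 (adjusted p = 0.0173), AURKB at -0.46 (adjusted p = 0.00442) and KIF11 at -0.35 (adjusted p = 0.0309). With dose 6 of the 18 rose and none fell, beside 1.02% and 2.04% of all genes, and at 0.5 μM against C2 3 were higher and 1 was lower, beside 4.36% and 1.96%, or 5 higher and 4 lower with C1 left out, beside 19.9% called in either direction. CDK2 did not follow that course, since its slope was -0.01.

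**Figure D5:**
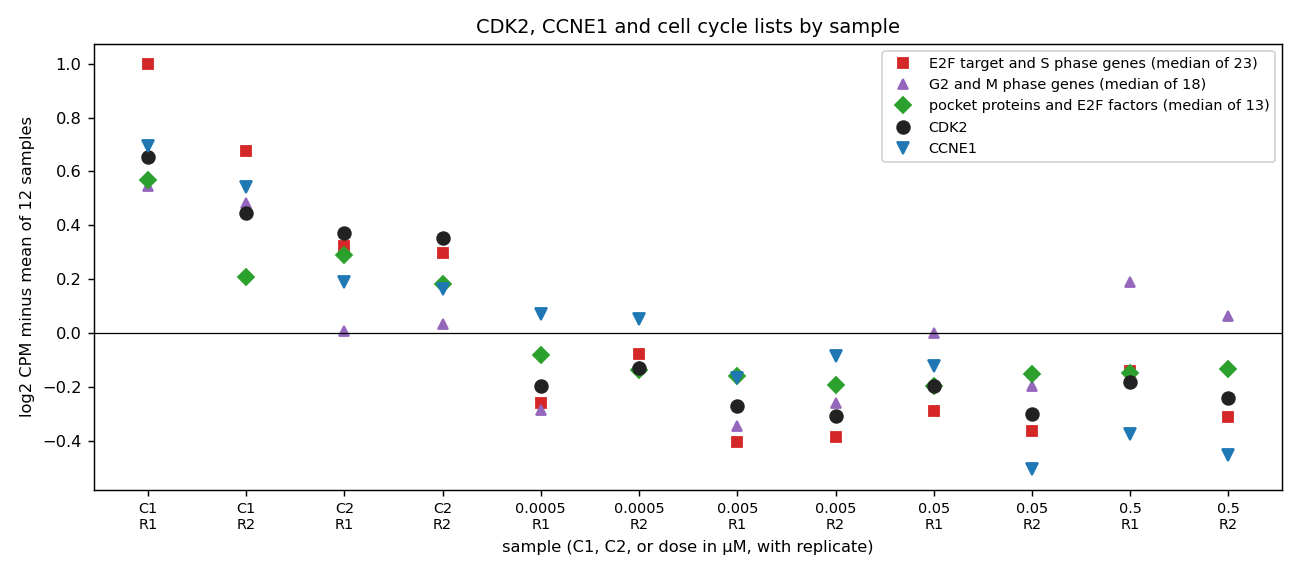
Log2 CPM of CDK2 and CCNE1 less its mean over 12 samples, and the median of that difference over 23 E2F target and S phase genes, over 18 genes of G2 and M phase and over 13 pocket proteins and E2F factors, by sample. CDK2, CCNE1 and all 3 lists lay above 0 in the 4 untreated samples, the G2 and M phase list only just so in C2 (0.00593 and 0.0323), and this list lay above 0 again in both samples at 0.5 μM (0.191 and 0.0617).

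Of 8 genes of CDK activation and cyclin A, 3 were lower in treated samples and none was higher. WEE1, a kinase that inhibits CDK1 and CDK2, gave -0.88 ± 0.12 (adjusted p = 7.29e-05), CDC25A, the phosphatase that opposes it, -0.53 ± 0.13 (adjusted p = 0.00809), CCNA2, the S phase partner of CDK2, -0.47 ± 0.15 (adjusted p = 0.0282) and MNAT1, a part of the CDK-activating kinase, -0.37 ± 0.13 (adjusted p = 0.0528). With C1 left out only WEE1 was still called (-0.81, adjusted p = 0.000378), while CDC25A came to -0.21 (adjusted p = 0.195), CCNA2 to -0.12 (adjusted p = 0.647) and MNAT1 to -0.16 (adjusted p = 0.395). The counts of 3 and then 1 of 8 stand beside 11.3% of all genes lower with C1 and 13.5% called in either direction without it, so the latter is near the background. Calls in the other direction were seen by dose: CCNA1, another cyclin A, was higher against C2 at 0.05 μM (0.56 ± 0.16, adjusted p = 0.0468) and at 0.5 μM (0.61 ± 0.16, adjusted p = 0.0425), beside 5.09% and 4.36% of all genes higher, and CCNA2 rose with dose (0.17 ± 0.04 per 10-fold, adjusted p = 0.0408), beside 1.02%. Leaving out C1, CCNA1 was higher at the same doses (0.58 and 0.61, adjusted p = 0.00646 and 0.00544). In the model of all samples WEE1 was the gene of this list lower against C2 at 0.005, 0.05 and 0.5 μM, by -0.91, -0.86 and -0.94 (adjusted p = 0.0249, 0.0187 and 0.0163). With C1 left out 1, 2, 1 and 1 of the 8 were lower from the lowest to the highest dose, beside 10.2%, 12.6%, 19.0% and 19.9% of all genes called in either direction. Among 12 genes of the turnover of G1 regulators 5 were lower and none was higher, and 2 were lower without both C1 libraries, beside the same background shares. SKP2, the ubiquitin ligase subunit that marks CDKN1B protein for removal, was at 29.6 to 47.5 CPM untreated and 15.1 to 19.2 treated (-1.1 ± 0.11, adjusted p = 9.5e-06), with no overlap. It was lower against C2 at 4 of 4 doses, by -0.79, -0.98, -0.86 and -0.70 with adjusted p of 0.0123, 0.0033, 0.00453 and 0.0154. FZR1, an activator of the anaphase-promoting complex, gave -0.59 ± 0.14 (adjusted p = 0.00716), CUL1, the scaffold of the SKP2 ligase, -0.28 ± 0.09 (adjusted p = 0.0283) and CKS1B, its cofactor, -0.44 ± 0.15 (adjusted p = 0.0436). With C1 left out SKP2 (-0.82, adjusted p = 0.000116) and FZR1 (-0.51, adjusted p = 0.0158) were still called, whereas CUL1 came to -0.18 (adjusted p = 0.233) and CKS1B to -0.11 (adjusted p = 0.671).

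Among 12 upstream transcription factors 1 was higher and 2 were lower in treated samples, beside 13.1% and 11.3% of all genes, so these counts are near the background. The immediate early gene EGR1 was higher (1.41 ± 0.26, adjusted p = 0.00126), at 74.5 to 148 CPM untreated and 195 to 503 treated, while the nuclear receptor NR4A1, another gene of fast induction, was lower (-2.09 ± 0.20, adjusted p = 6.71e-06), at 67.6 to 191 CPM untreated and 25.3 to 39.2 treated. FOXM1, an activator of cell cycle genes, was lower by -0.73 ± 0.23 (adjusted p = 0.0307), and FOXO1, an activator of CDKN1B, gave 0.26 ± 0.15 (adjusted p = 0.221). With both C1 libraries left out, 1 of the 12 was higher and 1 was lower beside 13.5% of all genes called, and these were EGR1 (1.37, adjusted p = 0.0356) and NR4A1 (-2.08, adjusted p = 1.84e-05), whereas FOXM1 came to -0.41 (adjusted p = 0.271). Against C2 in the model of all samples, NR4A1 was lower at 4 of 4 doses, and EGR1 was higher at 0.05 and 0.5 μM (2.04 and 1.34, adjusted p = 0.000829 and 0.00986). FOS, a partner in the AP-1 factor, was lower at 0.005 and 0.5 μM (-0.96 and -0.97, adjusted p = 0.00662 and 0.00492). The mean of EGR1 was 119 ± 9.06 CPM in C2 and 234 ± 11.3, 199 ± 5.85, 489 ± 20.4 and 301 ± 32.3 CPM in order of dose (SD, n = 2 each). With C1 left out, 1, 1, 2 and 2 of the 12 were higher by dose and 2, 4, 1 and 2 were lower. Of all genes 10.2%, 12.6%, 19.0% and 19.9% were then called in either direction.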

How the data were processed

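Bulk RNA-seq of 12 samples was analysed. The authors trimmed the reads (Trimmomatic 0.39, FastQC 0.11.9), aligned them to GRCh37 with STAR 2.7.5, kept unique alignments and counted reads in exons, and the deposited values are raw counts per gene. Files of single samples were identical to the series table in 12 of 12 cases. Counts were scaled by TMM, filtered with filterByExpr over the 6 conditions (25249 genes) and tested two-sided with robust quasi-likelihood fits in edgeR 4.0.16 (R 4.3.3), with Benjamini-Hochberg adjustment. Standard errors are on the log2 scale, treated against untreated samples was a fit of 2 groups, and the slope on log10 dose used the 8 treated samples. Log2 CPM used a prior count of 2. Merged exon lengths and coordinates came from GENCODE on GRCh37, promoters from RefSeq on GRCh38.p14.

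The procedures were tested on simulated counts with the same spread for all genes and samples. The larger spread of C1 was not simulated, so that test does not bear on calls that turn on C1. Members, lists and the rule for named genes (up to 4 per list with the smallest p in treated against untreated samples and a mean of at least 1 CPM, and 3 genes most like a member in each role) were chosen with earlier results of these data known. CDKN1A, CDKN3, SKP2, WEE1, CCNA2, NR4A1 and EGR1 are also given by dose, and CCNA1 and FOS are named outside that rule. All of these were chosen after their values were seen. Differences between replicates 1 and 2 correlated from -0.6 to 0.682 between conditions. The highest values were those of C1 with C2 (0.682) and of C2 with 0.5 μM (0.624). The replicate numbers thus did not mark the same deviation in all conditions, though some conditions shared one. Alternatives were RLE scaling, no filter, DESeq2 1.42.0, the replicate block, only the samples compared, a model of 6 conditions, each sample left out, and, added later, both C1 libraries left out and canonical lengths for the ratios. UHRF1 and PECAM1 were not analysed here.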

Additional observations from a re-analysis of the deposited data

How the results depend on the processing

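The 11 member results that were called had 192 alternatives. The sign was kept in 192 of 192, but the call was lost in 32 of them. Over all 1071 alternatives of member results, called or not, 1000 left the status as it was, and most results were not called to begin with. A call was gained in 39. RLE scaling moved no count by over 1.5 times. Given in the order of 0.0005, 0.005, 0.05 and 0.5 μM against C2, without both C1 libraries 2569, 3181, 4808 and 5033 genes were called and 3 members at each dose, and 3397 genes and 2 members were called in treated against untreated samples. In the 4 samples of a comparison alone, 2624, 2592 and 2578 genes were called at 0.0005, 0.005 and 0.5 μM, with 3, 2 and 2 members at the 3 lower doses, and 0 genes in C2 against C1. DESeq2 called 1173 and 1360 genes at 0.0005 and 0.005 μM, 271 in C2 against C1 and 1696 for the slope, and 2 members at 0.0005 μM, 2 at 0.5 μM, 1 in C2 against C1 and 2 for the slope. Without a filter 1480, 1909 and 2807 genes were called at 0.0005, 0.005 and 0.5 μM, 390 in C2 against C1 and 1358 for the slope, and 2 members at 0.005 μM, 2 at 0.5 μM and 1 in C2 against C1. The replicate block gave 420 genes for the slope against 773 and changed no member's call. Whether the replicate numbers pair the samples is not settled by the check above, since its signs were mixed. The cause of these differences was not tested.

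With 1 sample left out, the genes called ran from 141 to 2570, 84 to 3280, 322 to 4798 and 128 to 5033 at the 4 doses, 47 to 2785 in C2 against C1, 4105 to 6947 in treated against untreated samples and 124 to 1017 for the slope. The members called ran from 0 to 3 at each dose, 0 to 1 in C2 against C1, 4 to 6 in treated against untreated samples and 0 to 1 for the slope. With 2 samples per condition, a common biological coefficient of variation of 15.6% and 1 cell line, small differences of single members could not be told from the spread.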
